A study of Mus musculus with 34 samples.

Results

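The 4 Hox clusters were examined for H3K9me2, a histone mark of repressed chromatin, in the gonads of mouse embryos with and without vitamin C. Members were all genes named Hoxa, Hoxb, Hoxc or Hoxd followed by a number only. They came to 31 of 28706 genes in the soma table and 30 of 27021 in the table of primordial germ cells (PGCs), from which eggs and sperm arise, and Hoxb2 was in the soma table only. All libraries were from female C57BL/6 embryos at embryonic day 13.5 that were Gulo-/-, so that they lacked the enzyme that completes vitamin C synthesis and depended on the diet. In 1 group of each cell type vitamin C was supplied at a physiological level, and in the other it was withdrawn for the first weeks of gestation. CUT&RUN, in which a nuclease tethered through an antibody cuts out the DNA that carries a mark, was run on 1000 cells per library. H3K9me2 was profiled in 4 supplied and 3 withdrawn soma libraries and in 5 supplied and 5 withdrawn PGC libraries, out of 34 libraries with the IgG controls, which were not analysed here. PGCs were sorted as Oct4GFP+ and soma as Oct4GFP- cells. Soma is therefore a mixture of all other gonadal cells, and a change in the mark per cell cannot be told apart from a change in the mix of cells.

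Hox genes encode homeodomain transcription factors that give cells their position along the head-to-tail axis. Within a cluster, genes with low numbers are used towards the head and early, and those with high numbers towards the tail and late. Where they are not in use, Hox clusters are a textbook target of Polycomb repression, which works through another mark, H3K27me3. H3K9me2 is written mainly by G9a and GLP, and the demethylases that remove it belong to an enzyme class that uses vitamin C as a cofactor.

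Of the members called in soma, Hoxc4 and Hoxa10 rose, and Hoxd9, Hoxd11 and Hoxb3 lay below the median of all genes past the threshold. The promoters shown here are those of Hoxc4, Hoxa10, Hoxd9 and Hoxd11, chosen by these calls and not by the size of the change. Hoxb3 was called as well but had no listed promoter, so it is not among them. Each is the 250 bases before a RefSeq start on GRCm38.p6, read 5′ to 3′ on the strand of the gene, with every CG in capitals, since CG-rich promoters are a feature of developmental genes. A start that lies inside the annotated span of its gene is called internal, and one at the end of the span outer.
Hoxc4, internal, chr15:103034145-103034394, + strand: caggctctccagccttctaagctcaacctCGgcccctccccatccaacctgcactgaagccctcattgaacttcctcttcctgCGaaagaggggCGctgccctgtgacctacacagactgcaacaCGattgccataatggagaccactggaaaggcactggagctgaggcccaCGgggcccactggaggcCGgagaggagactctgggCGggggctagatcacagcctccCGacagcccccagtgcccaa
Hoxa10, outer, chr6:52240855-52241104, - strand: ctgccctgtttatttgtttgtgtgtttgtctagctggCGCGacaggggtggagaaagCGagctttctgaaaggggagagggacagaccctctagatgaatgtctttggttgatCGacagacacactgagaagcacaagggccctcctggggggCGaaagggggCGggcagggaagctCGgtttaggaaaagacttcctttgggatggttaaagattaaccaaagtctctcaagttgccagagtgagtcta
Hoxa10, internal, chr6:52234940-52235189, - strand: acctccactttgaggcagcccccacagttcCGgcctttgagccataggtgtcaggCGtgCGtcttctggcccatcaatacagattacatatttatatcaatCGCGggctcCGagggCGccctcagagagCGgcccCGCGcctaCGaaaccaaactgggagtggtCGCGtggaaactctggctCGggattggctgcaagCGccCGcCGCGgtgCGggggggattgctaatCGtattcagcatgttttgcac
Hoxd9, chr2:74697513-74697762, + strand: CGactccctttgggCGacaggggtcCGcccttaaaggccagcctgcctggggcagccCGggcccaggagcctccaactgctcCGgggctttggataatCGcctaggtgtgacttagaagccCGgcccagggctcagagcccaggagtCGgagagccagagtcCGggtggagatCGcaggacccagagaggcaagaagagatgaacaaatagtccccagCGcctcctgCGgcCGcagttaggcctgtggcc
Hoxd11, outer, chr2:74679308-74679557, + strand: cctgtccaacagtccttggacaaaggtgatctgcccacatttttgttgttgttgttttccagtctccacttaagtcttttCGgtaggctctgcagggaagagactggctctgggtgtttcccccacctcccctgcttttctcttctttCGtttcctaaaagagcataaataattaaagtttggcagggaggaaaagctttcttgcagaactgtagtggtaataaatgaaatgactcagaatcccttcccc
Hoxd11, internal, chr2:74682073-74682322, + strand: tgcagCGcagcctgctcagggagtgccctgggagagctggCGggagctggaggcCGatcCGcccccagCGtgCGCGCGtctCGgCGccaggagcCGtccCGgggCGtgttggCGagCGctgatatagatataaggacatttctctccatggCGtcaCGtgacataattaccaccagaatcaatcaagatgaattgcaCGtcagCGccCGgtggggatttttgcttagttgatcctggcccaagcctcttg
Read on both strands alike, CG occurs 8 times in the Hoxc4 window, 7 and 20 times in those of Hoxa10, 13 times in that of Hoxd9 and 2 and 20 times in those of Hoxd11. The genes that rose and those that did not thus overlap in CG count. Over the 17 Hox genes of the soma table with a listed promoter, 19 windows had a median of 12 CG, against 7 over 25609 windows of 20628 soma-table genes. At or over that median of 7 were 16 of the 19 Hox windows (84.2%) and 51.1% of all windows. Genes with many CG differed little in soma change: by quintiles of CG count, from the poorest to the richest, the medians of all genes were 1.11, 1.10, 1.04, 0.97 and 0.95 on the log2 scale.

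The files give, for each gene, a log2 fold change of withdrawn against supplied, an average in log2 CPM (reads scaled to a common library size) and the statistics of a limma test, with no value for single libraries. Rose and fell here refer to an adjusted p under 0.05 in that test, and errors are standard errors (SE) obtained from the fold change and its t. The direction of the soma contrast was read from the standard errors. In PGCs, with equal groups, it was assumed to be the same. That the tables are of H3K9me2 and not IgG is also assumed, since their headers name no antibody. As a geometric mean, effective library sizes were 1512598 reads or more for soma and 613601 or more for PGCs. The median Hox gene then had at least 8.20 reads per soma library, from 1.60 for Hoxb2 to 84.5 for Hoxb3, and 5.99 per PGC library, while the median of all genes was 15.9 and 7.03. Nothing in the labels says that libraries came from separate embryos, so the spread between libraries behind the p-values may be technical. That spread was pooled over all genes, so a p-value does not measure the spread of its own gene.

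On the deposited scale, whose library scaling is not given, soma Hox genes gained little H3K9me2 on withdrawal while most other genes gained. Of 31 Hox genes, 2 rose by the authors' deposited table, where 68.2% of all genes did, and 0 fell, where 0.101% of all genes did. The median Hox log2 fold change was 0.24, against 1.04 over all genes, a gap of 0.80. Of the 31 members, 22 lay above 0 and 9 below it, where 96.8% of all genes lay above 0, and 30 lay below the median of all genes. By an unadjusted p under 0.05, 3 Hox genes (71.8% of all genes) differed between the groups, all of them upwards.

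**Figure D1:**
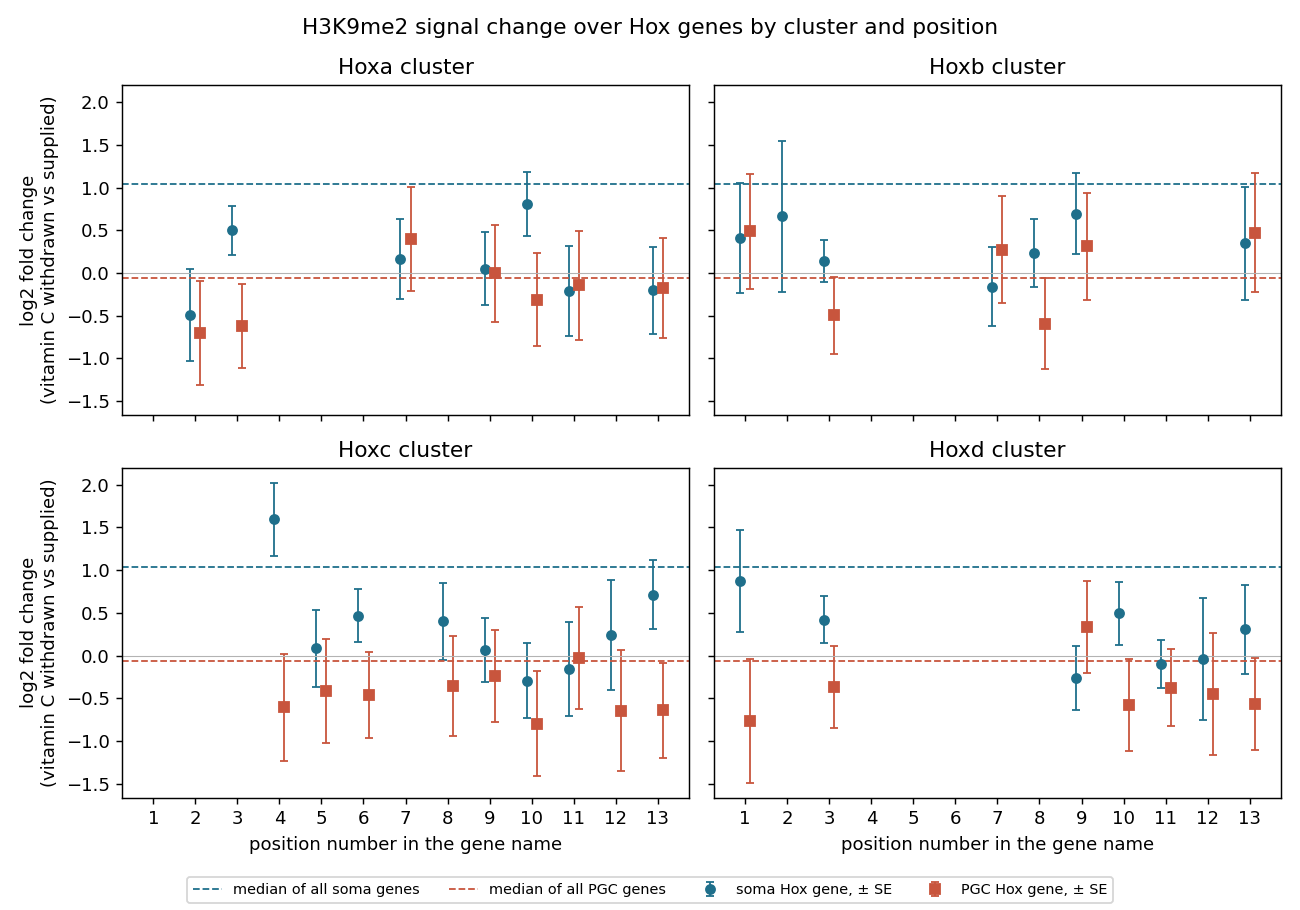
Log2 fold change of H3K9me2 (withdrawn against supplied, ± SE) of Hox genes against position number, with 1 panel per cluster, soma as circles and PGCs as squares, and dashed lines at the medians of all genes. The soma points lie below the soma line at 1.04, apart from Hoxc4 in the Hoxc panel.

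Hoxc4 is the outermost gene of the Hoxc cluster on its low-numbered side, and it patterns the neck and upper trunk. Its level went from about 1.97 log2 CPM in supplied soma to about 3.57 in withdrawn soma. By the authors' deposited table this was a rise of 1.60 ± 0.43 (adjusted p = 0.000715), or 3.02-fold, and it was the only Hox value above the median of all genes. Hoxc4 shares bases with the predicted gene Gm30528, which stood at 0.22 ± 0.29 (adjusted p = 0.473) by the authors' deposited table. How reads in shared bases were counted is not given. Set against the median of all genes, Hoxc4 was 0.55 higher, which did not pass (adjusted p = 0.828).

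Hoxa10, a gene of the posterior trunk and the female reproductive tract, went from about 2.89 to about 3.70 log2 CPM. By the authors' deposited table this was a rise of 0.81 ± 0.37 (adjusted p = 0.0448), just inside the threshold and below the 1.04 of the median gene. It overlaps the predicted gene Gm52902. When p was taken from the 7 libraries' own residual degrees of freedom instead of the pooled ones, only Hoxc4 rose among the members, and 32.1% of all genes did. Outside the threshold was Hoxc13, a gene of hair and nail, at 0.71 ± 0.40 (adjusted p = 0.101) by the authors' deposited table. Neither of the genes that rose is free of overlap with another annotated gene. Of the 19 Hox genes that share no bases with one, 0 rose in the limma test, where 68.2% of all genes did. Of these 19, 0 had an unadjusted p under 0.05 (71.8% of all genes), and their median was 0.24. They had a median of at least 7.10 reads per library and a median SE of 0.48. For the 12 Hox genes that overlap another, these were 14.5 and 0.37, with a median change of 0.46. The part of overlap or coverage in these counts was not tested.

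By cluster, the soma medians were 0.11 for 8 Hoxa genes, 0.35 for 7 Hoxb genes, 0.24 for 9 Hoxc genes and 0.31 for 7 Hoxd genes. All 4 clusters lay well under 1.04, and the range within each was wider than the gaps between them. The lowest Hoxa value was that of Hoxa2, which patterns the second branchial arch, at -0.49 ± 0.54 by the authors' deposited table. Hoxb ran from Hoxb7 at -0.16 ± 0.46 to Hoxb9, a gene of the rib cage, at 0.69 ± 0.48 by the authors' deposited table. Hoxc ran from Hoxc10, a lumbar gene, at -0.30 ± 0.44 to Hoxc4 at 1.60 by the authors' deposited table. Hoxd ran from Hoxd9 at -0.26 ± 0.37 to Hoxd1, at the low-numbered end, at 0.87 ± 0.59 by the authors' deposited table. Apart from Hoxc4 and Hoxa10, these values did not differ from 0 past the threshold.

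By position number, the soma medians were 0.46 for 8 genes numbered 1 to 3, the group used furthest towards the head, 0.24 for 7 genes numbered 4 to 8 and 0.06 for 16 genes numbered 9 to 13. Position and soma change had a Pearson r of -0.34 and a Spearman rho of -0.32 across the 31 genes, which share libraries and neighbourhoods, so this is a description. At position 1 Hoxb1 and Hoxd1 stood at 0.41 and 0.87 by the authors' deposited table, both above 0. At position 11 Hoxa11, Hoxc11 and Hoxd11, of which the Hoxa and Hoxd members act in kidney and forearm, stood at -0.21, -0.16 and -0.10 by the authors' deposited table, all just below 0. Position 13, the end of the series and a site of hindgut, genital and digit patterning, was mixed: Hoxa13 stood at -0.20, Hoxb13 at 0.35, Hoxc13 at 0.71 and Hoxd13 at 0.31 by the authors' deposited table. The standard errors of these genes, 0.28 to 0.66, are as large as most gaps between neighbours in the order.

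Because nearly all soma genes moved up together on the deposited scale, the members were also compared with the median of all genes. By this test 3 of 31 Hox genes were lower past an adjusted p of 0.05, where 1.3% of all genes were, and 0 were higher (0.0488% of all genes). Hoxd11 went from about 4.86 to about 4.76 log2 CPM and lay 1.14 below the median shift (adjusted p = 0.00649, limma standard errors). Hoxb3, the longest gene of its cluster, went from about 5.74 to about 5.88 log2 CPM and stood at -0.90 from the median shift (adjusted p = 0.0275). Hoxd9 went from about 3.49 to about 3.23 log2 CPM and stood at -1.31 from it (adjusted p = 0.0362). On the deposited scale each of these 3 genes changed by less than its SE. At an unadjusted p under 0.05, 14 Hox genes were lower than the median shift, where 6.24% of all genes were. With residual degrees of freedom in the same test, 0 Hox genes and 0% of all genes passed after adjustment, and 7 Hox genes (2.96% of all genes) were lower at an unadjusted p under 0.05. Hoxd9 shares no bases with another annotated gene, whereas Hoxd11 overlaps Hoxd10, and Hoxb3 overlaps Hoxb4, Hoxb3os and Mir10a.

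Hox genes also stood out in how much signal they carried for their length. IgG libraries were not analysed here, so the share of background in this signal was not tested. Averages were divided by the bases of each gene that no other annotated gene shares, since in both tables the average followed that length somewhat more closely than the whole span. Over 9468 soma genes that share bases, the Pearson r of the average with log2 length was 0.942 for unshared bases and 0.932 for the span. On this scale the median Hox gene stood at 0.44 log2 CPM per kilobase in soma, against -0.40 for all genes, and at 1.29 against -0.48 in PGCs. The median Hox gene was at percentile 91.4 of all soma genes and 94.3 of all PGC genes. In the top quintile were 25 of 31 members in soma and 29 of 30 in PGCs. Hoxd11 at 2.58 and Hoxd9 at 2.09 log2 CPM per kilobase were the highest Hox genes in soma, and they were also the highest in PGCs, at 4.16 and 2.85. Hoxd12 at -0.48 and Hoxc4 at -0.46 were the lowest in soma, near the median of all genes. Divided by the whole span, 21 of 31 members were in the soma top quintile, and the median Hox gene was at percentile 90.8. Some genes that share bases depended on this choice. Hoxb2, Hoxa3 and Hoxc4 were at soma percentiles 9.8, 17.7 and 4.2 by span, and 94.4, 95.2 and 44.4 by unshared bases. Across the 30 genes in both tables, soma and PGC averages per kilobase had a Pearson r of 0.925 when divided by the whole span, a description of genes that share a length in both.

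**Figure D2:**
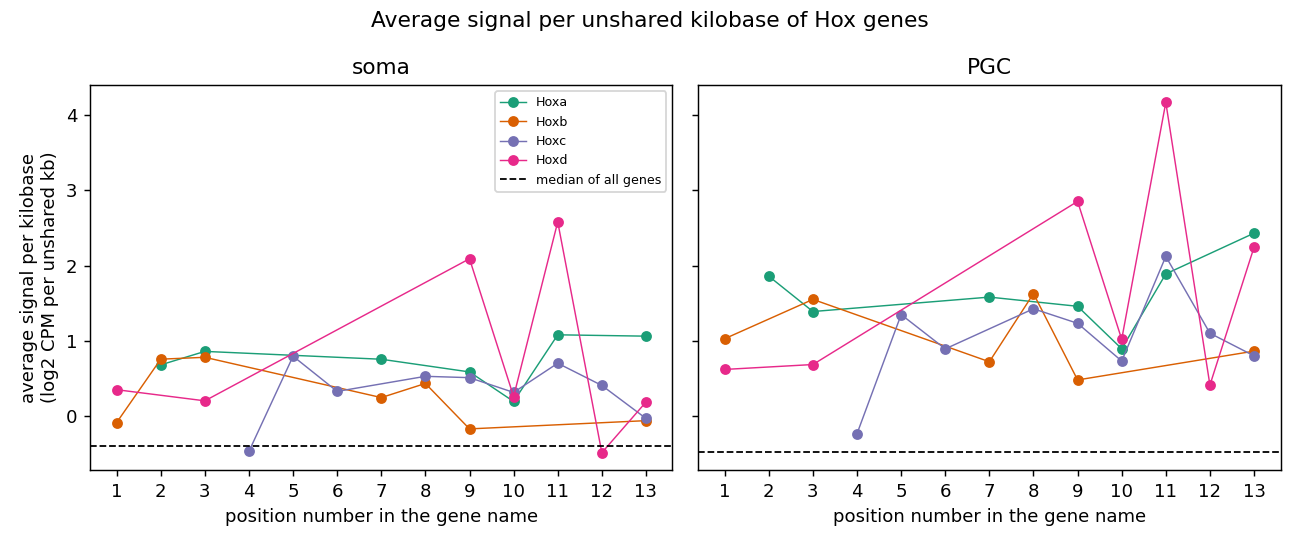
Average H3K9me2 signal per unshared kilobase (log2 CPM per kilobase) of Hox genes against position number, 1 line per cluster, in soma and PGCs, with the median of all genes dashed. Hoxd9 and Hoxd11 stand above the other members in both cell types, and Hoxc4 is near the dashed line at -0.40 in soma. The share of background in the signal was not tested.

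Signal per kilobase moved with the soma change over all genes, and its part in the Hox result was not tested. Along deciles of signal per unshared kilobase, the median soma log2 fold change of all genes went from 1.29 in the lowest to 0.88 in the last but one and 0.59 in the top decile. In that top decile 26.5% of 2634 genes rose and 11.9% were lower relative to the median, while it held 18 Hox genes, with a median of 0.11, of which 0 rose and 3 were lower relative to the median. All 3 Hox genes called lower than the median shift are thus in the decile where 11.9% of genes are. The 13 Hox genes outside the top decile had a median of 0.42, and both Hox genes that rose are among them. The size of the average itself made little difference to the change: by deciles of average signal, the medians of all soma genes lay between 1.01 and 1.13. The share that rose did follow it, from 27.1% in the lowest decile to 92.3% in the highest, and the part of coverage in the count of Hox genes that rose was not tested. In the shortest quintile of genes 29.0% of genes rose and the median was 0.99.

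**Figure D3:**
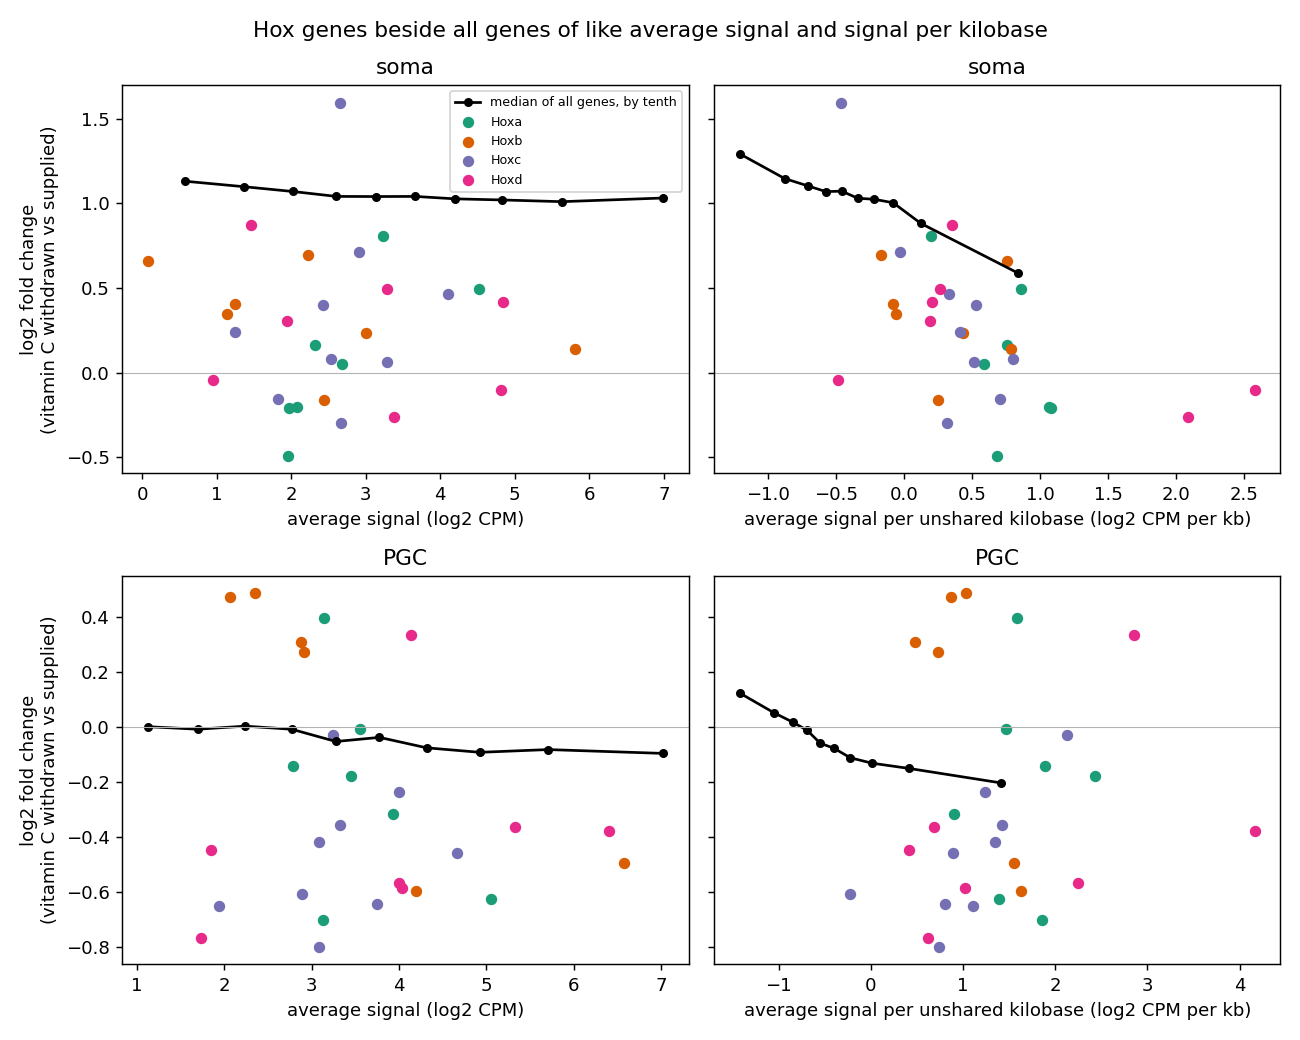
Log2 fold change of Hox genes (coloured by cluster) in soma (upper) and PGCs (lower), against average signal (left, log2 CPM) and average signal per unshared kilobase (right), with the median of all genes in each decile as a black line. The line is nearly flat against the average and falls to 0.59 in the top decile of signal per kilobase in soma, and most Hox genes lie under it in both upper panels.

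Genes beside the Hox clusters had a median near that of all genes and above that of the Hox genes. Of the 5 nearest measured genes on each side of the 4 clusters, 40 in all, 25 rose (62.5%, where 68.2% of all genes did) and 0 fell by the authors' deposited table, with a median of 0.92. By cluster 7, 7, 5 and 6 of 10 flanking genes rose beside Hoxa, Hoxb, Hoxc and Hoxd. Below the median of all genes lay 26 of the 40 (65%). Beside Hoxc it was 9 of 10, with a median of 0.66. Hnrnpa1, on that side of Hoxc4, stood at -0.57 ± 0.31 (adjusted p = 0.0896) by the authors' deposited table, lower than every Hox gene. In the test against the median of all genes Hnrnpa1 stood at -1.61 (adjusted p = 7.57e-05), further below it than any Hox gene. It was the 1 flanking gene of 40 (2.5%) called lower in that test, where 1.3% of all genes were. At the Hoxa cluster, 105.514 kilobases long, Skap2 on the low-numbered side rose by 1.00 ± 0.22 (adjusted p = 5.87e-05) and Hibadh beyond the other end by 0.99 ± 0.24 (adjusted p = 0.000200) by the authors' deposited table. The non-coding RNA Halr1, 41.7 kilobases outside the cluster, rose by 1.34 ± 0.37 (adjusted p = 0.000889) by the authors' deposited table. At the Hoxd cluster Mtx2, a mitochondrial import gene next to Hoxd1, rose by 0.93 ± 0.26 (adjusted p = 0.00109) by the authors' deposited table. Evx2, a homeobox gene 6.71 kilobases from Hoxd13, stood at 0.29 ± 0.37 (adjusted p = 0.470), and Evx1, its counterpart beyond Hoxa13, at 0.61 ± 0.58 (adjusted p = 0.333) by the authors' deposited table. The flanking genes had a median of -0.37 log2 CPM per unshared kilobase, near that of all genes and below the Hox genes.

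Inside the clusters, 10 other measured genes had a median of 0.92, and 2 rose (20%, where 68.2% of all genes did) by the authors' deposited table. Their coverage was low, with a median of at least 5.85 reads per soma library and a median SE of 0.52. Hotair, a non-coding RNA between Hoxc11 and Hoxc12, rose by 1.27 ± 0.58 (adjusted p = 0.0435), while Hoxc11 and Hoxc12 stood at -0.16 and 0.24 by the authors' deposited table. Haglr, between Hoxd3 and Hoxd1, rose by 1.24 ± 0.36 (adjusted p = 0.00168), while Hoxd3, a gene of the upper spine, stood at 0.42 ± 0.28 (adjusted p = 0.161) by the authors' deposited table. Hotairm1, next to Hoxa2, stood at -0.03 ± 0.57 (adjusted p = 0.962) by the authors' deposited table. Gm53 in the Hoxb cluster and Gm30528 in the Hoxc cluster stood at 0.09 ± 0.35 and 0.22 ± 0.29. Differences between Hox genes and their neighbours were not tested.

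**Figure D4:**
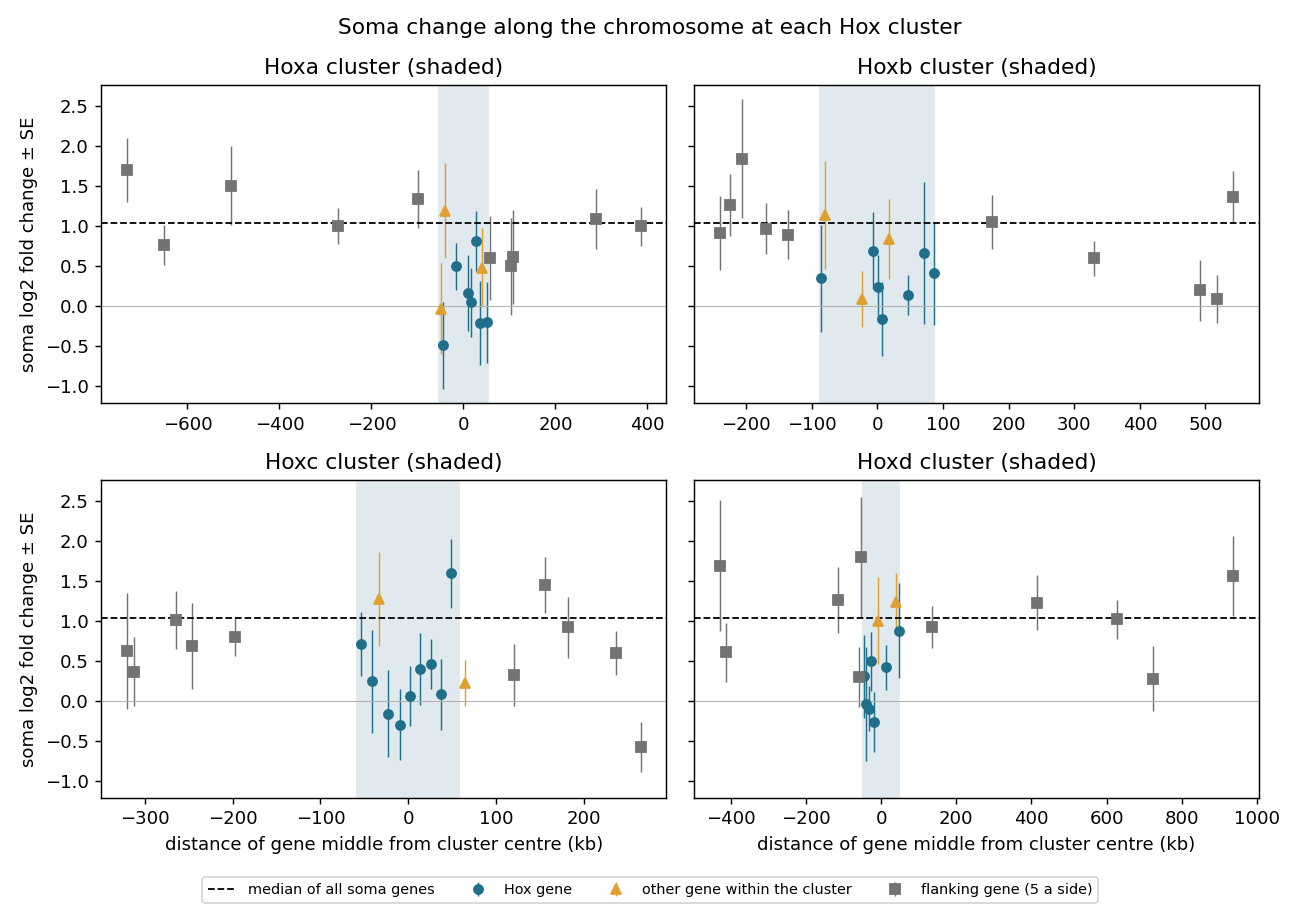
Soma log2 fold change (± SE) of Hox genes (circles), other genes within the clusters (triangles) and the 5 nearest measured genes on each side (squares), against distance in kilobases from the centre of each cluster, which is shaded, with the median of all genes dashed. Flanking genes scatter about the dashed line at 1.04, with a median of 0.92, and Hox genes lie mostly under it.

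In PGCs the Hox genes did not differ between supplied and withdrawn past the threshold. Of 30, 0 rose and 0 fell by limma in the authors' deposited table, where 0% of all genes did either, and 0 had an unadjusted p under 0.05, where 0.984% of all genes did. That share is under what a threshold of 0.05 would let through with no change in any gene. The deposited t had an SD of 0.707 over all PGC genes. The test was thus strict in PGCs, and a count of 0 does not show that nothing changed. The median Hox log2 fold change was -0.40, against -0.06 over all genes. Of the 30, 6 lay above 0, where 42.7% of all genes did, 24 below it, and 22 were below the median of all genes. The lowest was Hoxc10 at -0.80 ± 0.61, from about 3.48 to about 2.69 log2 CPM, and the highest was Hoxb1 at 0.49 ± 0.68, from about 2.11 to about 2.60 log2 CPM, by the authors' deposited table. Both 95% intervals include 0, the one of Hoxc10 reaching up to 0.40 and that of Hoxb1 running from -0.84 to 1.81.

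The PGC medians by cluster were -0.25 for Hoxa, 0.29 for Hoxb, -0.46 for Hoxc and -0.45 for Hoxd. The Hoxb median was the one above 0: 4 of the 6 Hoxb genes, Hoxb1, Hoxb7, Hoxb9 and Hoxb13, lay between 0.27 and 0.49 by the authors' deposited table, and Hoxb3 and Hoxb8 at -0.49 and -0.59. All 9 Hoxc genes lay below 0. Hoxd9 at 0.33 ± 0.53 was the exception among 7 Hoxd genes, and Hoxa7 at 0.40 ± 0.61 among 8 Hoxa genes, by the authors' deposited table. By position number the medians were -0.54 for 1 to 3, -0.42 for 4 to 8 and -0.28 for 9 to 13. The 23 Hox genes in the top decile of signal per unshared kilobase had a median of -0.38, and all genes of that decile -0.20. The 40 flanking genes had a median of -0.33, close to that of the Hox genes.

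The change in soma was also set against that in PGCs, gene by gene, as a difference of the deposited log2 fold changes. It reached an adjusted p under 0.05 for 0 of 30 Hox genes and for 0% of 26721 shared genes. The PGC standard errors enter this test as well, so its count of 0 does not show that the changes were alike. The median difference, soma minus PGC, was 0.50 for Hox genes and 1.07 for all genes, and 22 of 30 Hox genes lay above 0, where 95.7% of all genes did. With the PGC direction as assumed, Hoxc4 differed by 2.20 (95% interval 0.71 to 3.70, adjusted p = 0.105), from a soma change of 1.60 and a PGC change of -0.61. By an unadjusted p under 0.05 Hoxc4, Hoxa3 (1.12) and Hoxc13 (1.36) were higher in soma, where 34.4% of all genes were. Relative to the median of each table, 24 of 30 Hox genes lay below 0, where 53.6% of all genes did. Of these, Hoxd9 (-1.70) and Hoxb7 (-1.54) had an unadjusted p under 0.05, where 1.95% of all genes did. Neither passed after adjustment, nor did any gene of the tables (0%). These differences rest on the assumed PGC direction. With it turned, the Hox median was -0.04 and that of all genes 0.96, 15 of 30 Hox genes lay above 0, and the difference was 0.99 for Hoxc4 and 1.00 for Hoxb9. Relative to the medians 28 of 30 then lay below 0, where 51.0% of all genes did. Hoxd9 stood at -0.26 in soma and 0.33 in PGCs by the authors' deposited tables, and the interval of the difference, -1.87 to 0.67, includes 0. Soma and PGC changes had a Pearson r of -0.21 and a Spearman rho of -0.22 across 30 genes.

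**Figure D5:**
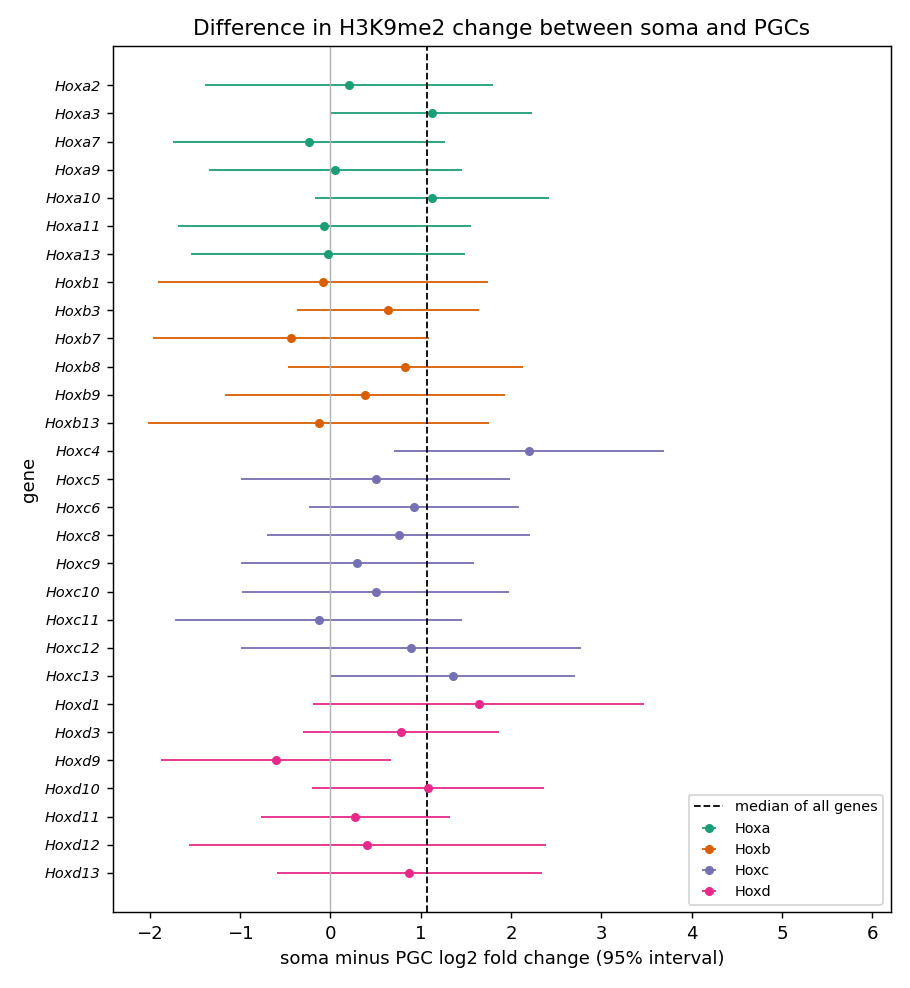
Difference between the soma and PGC log2 fold changes of Hox genes, with 95% intervals, coloured by cluster, and the median of all genes dashed. With the PGC direction as assumed, the intervals of Hoxc4, Hoxa3 and Hoxc13 lie above 0, and those of the other members shown include it.

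Genes that work with or upon Hox genes had soma medians between those of the Hox genes and of all genes. Their counts are read against the 68.2% of all soma genes that rose, and their difference from the Hox genes was not tested. Of 9 Hox cofactors, the TALE homeodomain proteins that bind DNA with Hox proteins, 5 rose and 0 fell by the authors' deposited table, with a median of 0.69. Meis2 rose by 0.69 ± 0.22 (adjusted p = 0.00336), while Pbx3 stood at 0.25 ± 0.21 (adjusted p = 0.261) by the authors' deposited table. Relative to the median of all genes, Pbx3 and Pbx4 were lower, by -0.79 and -0.87 (adjusted p = 0.0172 and 0.0298). Of 20 measured Polycomb genes 10 rose, 0 fell and the median was 0.65, with Ezh2, the enzyme that writes H3K27me3, at 0.22 ± 0.23 (adjusted p = 0.374) and Jarid2, its cofactor, at 0.76 ± 0.22 (adjusted p = 0.00145) by the authors' deposited table. Of 10 Trithorax and H3K27 demethylase genes, which counter Polycomb, 8 rose and 0 fell, with a median of 0.74, Kmt2a by 0.56 ± 0.24 (adjusted p = 0.0340) by the authors' deposited table. Of 6 ParaHox genes, the sister homeobox genes of the Hox clusters, 1 rose, Cdx4 by 1.24 ± 0.44 (adjusted p = 0.00916), and 0 fell, with a median of 0.70 by the authors' deposited table. Of 23 listed non-Hox genes and non-coding RNAs of the clusters, 11 were measured in soma and 3 rose, with a median of 0.61. Those medians are all below 1.04 and above the 0.24 of the Hox genes. In PGCs none of these lists had a called gene by limma, and their medians were -0.37, -0.14, -0.15, -0.04 and -0.04 in the order given.

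Marker lists of the cells that each gate could hold were read beside these values, as the H3K9me2 change over their genes and not as expression. In soma, 6 of 9 PGC markers, 7 of 10 supporting cell markers, 2 of 5 stromal, 5 of 6 mesonephric, 6 of 6 endothelial and 3 of 5 blood markers rose by the authors' deposited table, where 68.2% of all genes did, and 0 fell. Their medians were 0.91, 0.88, 0.27, 1.10, 1.06 and 1.21, and the stromal list was the one nearest the Hox median of 0.24. In PGCs the same medians were -0.11, -0.14, -0.32, -0.13, 0.02 and 0.10. Whether the cell mix differed between supplied and withdrawn soma was not tested, since the mark does not give the number of cells of a type.

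Of 39 annotated Hox genes, Hoxa4, Hoxa5, Hoxa6, Hoxb4, Hoxb5, Hoxb6, Hoxd4 and Hoxd8 were not analysed here. All 8 lie wholly within the annotated span of another gene, such as Hoxa3, Hoxb3 or Hoxd3, and the other 31 do not. Over all protein-coding genes, 77 of 960 (8.02%) that lie within another gene were in the soma table, and 18694 of 20940 (89.3%) of the others. Positions 4 to 6 of Hoxa and Hoxb and positions 4 and 8 of Hoxd are thus without values. The middle group of positions holds no Hoxd gene and rests largely on Hoxc.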

How the data were processed

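H3K9me2 CUT&RUN libraries of 1000 cells each, amplified over 18 PCR cycles per the labels' protocols, were grouped by cell type and vitamin C state as labelled. Trim Galore 0.4.0, Bowtie2 2.2.5, Picard and mm10 are named in the submitters' processing notes. Counting and scaling are not given there or in the labels. The authors' deposited tables of a voom and limma fit give the log2 fold change and average on a log2 scale, a t statistic as a score, a p-value with its Benjamini-Hochberg adjustment, and the natural log of odds B. The tables of repeat families were not used here.

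The members, gene lists and tests were chosen with earlier results of these data known, and every gene of the naming rule may be named. Some genes of these lists enter the counts and medians and are not reported here one by one. SE was fold change over t. The deposited p-values followed from t with 143530 (soma) and 216168 (PGC) degrees of freedom, the residual 5 and 8 pooled over all genes. The same SE was kept where residual degrees of freedom were used instead. The adjustments were recomputed and matched. Over genes, the deposited t had an SD of 1.50 in soma and 0.707 in PGCs. Standard errors modelled from average and group sizes left a misfit of 0.247% for soma as withdrawn minus supplied and 1.40% for the reverse, and 0.0542% either way for PGCs. Averages over whole reads take certain steps. For 7 soma libraries 348 averages were on them and 0 off, for 10 PGC libraries 282 and 0, which gave the library sizes. These cover counting error only, and PCR reads are not independent molecules. Group levels follow from average, fold change and group sizes and are approximate. To test a change against the median of all genes, that median was subtracted and the same SE kept. The difference between soma and PGCs was tested (two-sided, Satterthwaite degrees of freedom) as if both were independent, adjusted over 26721 genes. Percentiles and lengths used RefSeq GRCm38.p6, whose symbols matched 92.4% of soma and 92.7% of PGC genes. The difference test and the test against the median were run on values simulated with the same SE and independent genes. That checks the calculation and not whether these SE hold. Python 3.11.15, NumPy 2.4.6, pandas 2.3.3, SciPy 1.17.1 and Matplotlib 3.10.9 were used.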

Additional observations from a re-analysis of the deposited data

How the results depend on the processing

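The count of 2 Hox genes that rose in soma was 1 at an adjusted p under 0.01, 1 with residual degrees of freedom and 1 with the Benjamini-Yekutieli adjustment. With residual degrees of freedom 32.1% of all genes rose, against 68.2% as deposited. The shares of all genes under the stricter adjusted thresholds are not given here, so those counts cannot be set against them. It was 2 without the lowest quartile of averages and, with genes that overlap another gene left out, 0. Relative to the median 3 were called, all lower, and 0 with residual degrees of freedom as well. The last setting and the leaving out of overlapping genes were chosen after seeing the data, as were both settings for the neighbours. Of the 40 neighbours 25 rose, 8 with residual degrees of freedom (32.1% of all genes) and 20 at an adjusted p under 0.01. Hox medians ranged from 0.20 to 0.31 in soma and from -0.43 to -0.31 in PGCs with each cluster left out, weighted, without low averages or without overlapping genes. Counts of 0 in PGCs and for the difference stayed at 0 under each alternative run, with the PGC sign turned for the difference. The Hox median of the difference moved from 0.50 to -0.04 with that sign turned, a value added after seeing the data. Relative to the median, 20 soma values given here changed sign: Hoxa3 to -0.54, Hoxa7 -0.88, Hoxa9 -0.99, Hoxa10 -0.23, Hoxb1 -0.63, Hoxb2 -0.38, Hoxb3 -0.90, Hoxb8 -0.80, Hoxb9 -0.35, Hoxb13 -0.70, Hoxc5 -0.96, Hoxc6 -0.58, Hoxc8 -0.64, Hoxc9 -0.98, Hoxc12 -0.80, Hoxc13 -0.33, Hoxd1 -0.17, Hoxd3 -0.62, Hoxd10 -0.55 and Hoxd13 -0.73, by construction, since 1.04 was subtracted. No paired analysis was possible because the tables hold no values per library, and for the same reason no library could be left out. With medians of 8.20 reads per gene in soma and 5.99 in PGCs, SE of single Hox genes were 0.25 to 0.89 and 0.45 to 0.72.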
